A study of Mus musculus with 86 samples.

Results

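The FGF receptor genes Fgfr1 and Fgfr2 and the feedback genes Dusp6, Spry2, Spry4 and Spred1 were followed in single cells of the embryonic mouse kidney. They were found by gene symbol, and all 6 are among the 12360 genes of the table of expressed genes, so 6 of 6 have values. The 86 cells came from wild-type metanephroi of a mixed background, with males and females pooled, at 12.5 days post coitum (Theiler stage 20). The kidneys were combined and taken apart with trypsin, and a Fluidigm C1 instrument held each cell in a separate chamber for lysis and cDNA synthesis. No cell was treated and there is no other genotype, and the stated aim is an atlas of kidney transcription at the level of single cells. The cells were assigned to 3 classes by their RNA. Bud cells had a Mal2 level of at least 100 RPKM (a read density per gene, corrected for transcript length and for the reads of each cell), Six2-detecting cells were outside the bud class with Six2 at an RPKM of at least 1, and the remaining cells were all others. The protocol pools kidneys before dissociation, and no label divides the cells by animal or pool, so the cells were treated as 1 pool and each class as 1 sample: values were described over cells, and no difference between classes was tested.

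FGF ligands bind receptor tyrosine kinases together with heparan sulfate chains, and the receptors signal through the adaptor Frs2, Ras and the kinase cascade that ends in ERK. ERK activity turns on genes that restrain the same pathway: Sprouty and Spred proteins act between the receptor and the kinase cascade, and the phosphatase Dusp6 removes phosphate from ERK. In the embryonic kidney, FGF signalling keeps nephron progenitors alive and uncommitted, and it adds to GDNF and Ret signalling in the branching ureteric bud, which feeds the same ERK cascade.

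Promoter sequence is shown for Dusp6 and Fgfr2, the genes past 2-fold in the ratio of means for bud cells, and for Spry2, the most widely detected of the Sprouty genes, because ETS factors such as Etv4 and Etv5 act downstream of ERK and bind sites with the core GGAA. The windows run from 250 bases before to 50 bases after the start of the gene, from RefSeq on GRCm38.p6, and 4 of the 6 genes matched an entry. Capitals mark GGAA on either strand, so that TTCC is the same core on the other strand. The 2 spellings share no base.
Dusp6 promoter window, chr10:99262981-99263280, plus strand: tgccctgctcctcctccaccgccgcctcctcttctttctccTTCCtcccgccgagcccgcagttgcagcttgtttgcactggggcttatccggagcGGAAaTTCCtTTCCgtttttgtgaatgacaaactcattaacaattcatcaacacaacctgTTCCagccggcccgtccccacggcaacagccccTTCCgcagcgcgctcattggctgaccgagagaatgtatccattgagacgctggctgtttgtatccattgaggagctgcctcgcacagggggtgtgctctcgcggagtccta
Spry2 promoter window, chr14:105896770-105897069, minus strand: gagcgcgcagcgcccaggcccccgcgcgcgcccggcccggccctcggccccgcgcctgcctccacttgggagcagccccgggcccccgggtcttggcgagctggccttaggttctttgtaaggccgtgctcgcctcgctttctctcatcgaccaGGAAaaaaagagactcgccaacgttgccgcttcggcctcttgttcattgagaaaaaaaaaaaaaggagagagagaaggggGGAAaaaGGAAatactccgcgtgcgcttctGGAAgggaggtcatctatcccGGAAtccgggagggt
Fgfr2 promoter window, chr7:130266759-130267058, minus strand: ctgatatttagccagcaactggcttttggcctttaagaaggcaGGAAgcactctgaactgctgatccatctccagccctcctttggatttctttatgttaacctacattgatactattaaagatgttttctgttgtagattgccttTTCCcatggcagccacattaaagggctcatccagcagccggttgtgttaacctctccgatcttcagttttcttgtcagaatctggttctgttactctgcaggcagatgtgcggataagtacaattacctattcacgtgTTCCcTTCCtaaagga
The Dusp6 window held 6 such cores, the Spry2 and Spred1 windows 5 each and the Fgfr2 window 4. Among all 32851 windows of the same length, 96.0% held at least 1 core and the median was 3. As many as 6 cores were present in 15.7% of windows, at least 5 in 28.6% and at least 4 in 46.3%. The longer motif CCGGAA, which contains GGAA and can overlap its own reverse complement, was found once in the Spry2 window, in none of the other 3 and in 14.9% of all windows. A match describes letters and is not a measured binding site.

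The classes were checked against marker genes. Of 14 ureteric bud markers, 11 were in the table. All 11 were detected in at least 50% of bud cells, against 1 of 11 in the Six2-detecting cells and 0 of 11 in the remaining cells. Mal2, which sets the bud class, is 1 of these 11, so its part of the check was fixed in advance. A gene was listed only with 3 or more cells past an RPKM of 3. A marker confined to the bud could thus be listed only through bud cells, so its detection there was in part fixed as well. Ret, the GDNF receptor, was detected in 6 of 7 bud cells, in 0 of 46 Six2-detecting cells (exact 95% upper limit 7.71%) and in 0 of 33 remaining cells (upper limit 10.6%). The lowest bud cell had 1219 RPKM of Mal2 and the highest cell outside had 3.41 RPKM, so no cell lay near that limit. The Six2 limit was narrower: the lowest Six2-detecting cell had 1.50 RPKM and the highest remaining cell 0.527 RPKM. The authors' deposited table of progenitor cells, which holds 35 of the cells, includes 2 of the 7 bud cells (47 and 57). Of the 7 bud cells, 3 also detected Six2, up to 50.4 RPKM, and the summed level of 11 nephron progenitor markers had a median of 205 RPKM in bud cells, 787 RPKM in Six2-detecting cells and 175 RPKM in remaining cells. Six2, which divides the cells outside the bud, is 1 of these 11 markers. Foxd1, a stroma gene, was detected in 31 of the 46 Six2-detecting cells and 25 of the 33 remaining cells, and 12 stroma markers summed to a median of 32.5 RPKM in bud cells, 306 RPKM in Six2-detecting cells and 599 RPKM in remaining cells. Both classes outside the bud thus held nephron progenitor and stroma markers, so neither can be taken as a single cell type. Bud cells held such markers as well, with nephron progenitor sums from 1.27 to 639 RPKM and stroma sums from 2.94 to 283 RPKM. Every Six2-detecting cell had sums of at least 139 RPKM for nephron progenitor and 86.9 RPKM for stroma markers. Every remaining cell had at least 30.1 RPKM and 34.3 RPKM. Single cells outside the bud thus held RNA of both sets, and whether a class also mixes cell types was not tested.

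Median depth was close between classes. Whole-read steps in the low values put the reads per cell, relative to the median cell, at a median of 1.05 in bud cells (0.686 to 1.23), 1.01 in Six2-detecting cells (0.152 to 3.07) and 0.978 in remaining cells (0.327 to 1.94). At median depth an RPKM of 1, the level called detected, stands for 4.20 reads of Spry2, 9.23 reads of Spry4 and 5.62 reads of Dusp6. It could not be put in reads for Fgfr1, Fgfr2, Spred1 or the class marker Six2, which had too few low values or too few in whole-read steps. The median number of detected genes was 6488 in bud cells, 6256 in Six2-detecting cells and 6087 in remaining cells. Intervals given with the number of detecting cells are exact 95% limits by Clopper and Pearson and hold for counting error alone.

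Fgfr1 was detected in nearly every cell of each class at similar levels, and Fgfr2 was lower and more uneven. Fgfr1, on chromosome 8 (26629244 to 26686186, mm9, gene 14182), encodes a receptor of mesenchymal and other cells. Its level in bud cells ran from 20.7 RPKM over a median of 33.6 RPKM to 54.2 RPKM. In Six2-detecting cells it ran from 5.57 over 33.1 to 231 RPKM, and in remaining cells from 0.179 over 24.1 to 160 RPKM. The bud cells thus lay inside the range of both other classes. Fgfr1 was detected in 7 of 7 bud cells (interval 59.0 to 100%), 46 of 46 Six2-detecting cells (92.3 to 100%) and 30 of 33 remaining cells (75.7 to 98.1%). The means were 32.6 ± 11.1 RPKM in bud cells, 44.1 ± 43.1 RPKM in Six2-detecting cells and 41.4 ± 39.6 RPKM in remaining cells (SD over cells), differences smaller than these spreads.

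Fgfr2, on chromosome 7 (137305965 to 137410322, mm9, gene 14183), encodes the receptor whose epithelial isoform binds Fgf7 and Fgf10. The table has 1 value per gene, so its isoforms were not told apart. Bud cells ran from 0.109 over a median of 4.64 to 12.8 RPKM. Six2-detecting cells ran from 0 over 9.42 to 92.8 RPKM, and remaining cells from 0 over 4.14 to 111 RPKM. No bud cell stood above or below all cells of another class: 17 of 46 Six2-detecting cells and 12 of 33 remaining cells lay above the highest bud cell. Fgfr2 was detected in 6 of 7 bud cells (42.1 to 99.6%), 39 of 46 Six2-detecting cells (71.1 to 93.7%) and 21 of 33 remaining cells (45.1 to 79.6%). The mean was 5.38 ± 4.20 RPKM in bud cells, 15.6 ± 20.2 RPKM in Six2-detecting cells and 15.2 ± 24.7 RPKM in remaining cells.

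Most cells held more Fgfr1 than Fgfr2, and RPKM allows that comparison because it is scaled to gene length. Fgfr1 was the higher of the pair in 7 of 7 bud cells, 39 of 46 Six2-detecting cells and 26 of 33 remaining cells. Both receptors were detected together in 6 bud cells, 39 Six2-detecting cells and 19 remaining cells. A further 2 remaining cells detected Fgfr2 alone, and 1 remaining cell detected neither receptor. Across all 86 cells the levels of the 2 receptors had a Pearson r of 0.04 on the log2(RPKM + 1) scale, a description of cells treated as 1 pool. Within classes r was 0.30 in 46 Six2-detecting cells and -0.20 in 33 remaining cells.

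**Figure D1:**
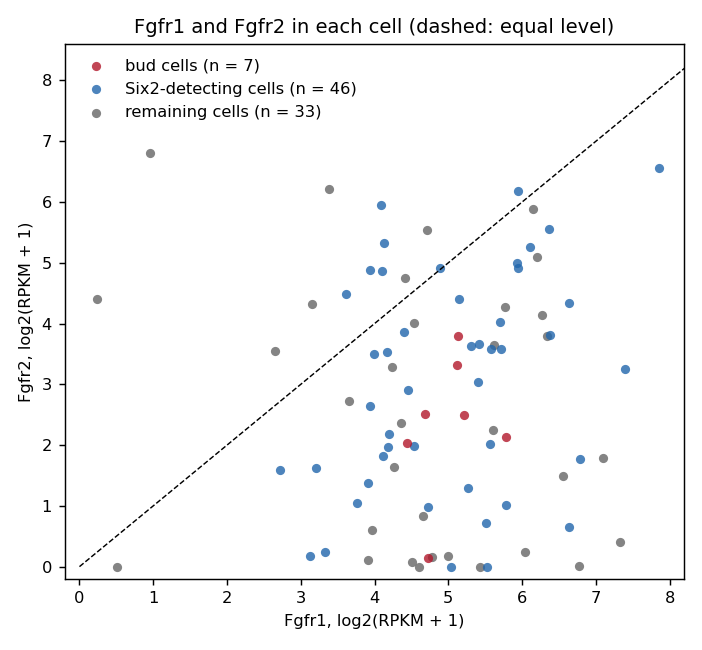
Each point is 1 cell, with Fgfr1 on the horizontal and Fgfr2 on the vertical axis, both as log2(RPKM + 1), and the dashed line marks equal levels. All 7 bud cells (red), 39 of 46 Six2-detecting cells (blue) and 26 of 33 remaining cells (grey) lie below the line.

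Dusp6 was the member that stood highest in the bud. This phosphatase of ERK, on chromosome 10 (98725865 to 98730123, mm9, gene 67603), had 222, 207, 250, 91.6, 88.0, 298 and 256 RPKM in the 7 bud cells. In Six2-detecting cells it ran from 0.0909 over a median of 49.9 to 197 RPKM, and in remaining cells from 0.194 over 35.2 to 149 RPKM. Of the bud cells, 5 lay above all 79 cells of the other classes, while the pair near 90 RPKM lay among them: 15 of 46 Six2-detecting cells and 7 of 33 remaining cells reached the level of the lowest bud cell. The pair, cells 47 and 53, also had the highest nephron progenitor sums of the bud cells (639 and 605 RPKM, the others up to 422 RPKM) and the lowest bud marker sums (2230 and 2075 RPKM, the others from 3015 RPKM), and the part of these in the Dusp6 level was not tested. The bud marker sums include Mal2, which sets the class, at 1521 RPKM in cell 47 and 1219 RPKM in cell 53. Those were the lowest Mal2 levels of the bud cells. Dusp6 was detected in 7 of 7 bud cells (59.0 to 100%), 43 of 46 Six2-detecting cells (82.1 to 98.6%) and 29 of 33 remaining cells (71.8 to 96.6%). The mean was 202 ± 81.6 RPKM in bud cells, 62.9 ± 56.4 RPKM in Six2-detecting cells and 46.2 ± 44.8 RPKM in remaining cells, a ratio of (mean RPKM + 1) of 3.17-fold over Six2-detecting cells and 4.30-fold over remaining cells.

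Spry2, on chromosome 14 (106291164 to 106296036, mm9, gene 24064), is a Sprouty inhibitor of receptor tyrosine kinase signalling. Bud cells ran from 26.0 over a median of 65.1 to 115 RPKM. Six2-detecting cells ran from 0.988 over 32.9 to 178 RPKM, and remaining cells from 0.222 over 20.7 to 160 RPKM. The lower end of the bud cells was high, but the ranges overlapped: 29 of 46 Six2-detecting cells and 13 of 33 remaining cells reached the lowest bud cell. Spry2 was detected in 7 of 7 bud cells (59.0 to 100%), 45 of 46 Six2-detecting cells (88.5 to 99.9%) and 32 of 33 remaining cells (84.2 to 99.9%). Its mean was 62.9 ± 31.1 RPKM in bud cells, 39.1 ± 32.6 RPKM in Six2-detecting cells and 38.4 ± 41.5 RPKM in remaining cells.

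Spry4 and Spred1 were found in fewer cells, and near 50% of the cells outside the bud lacked each of them at the detection level. Spry4, another Sprouty inhibitor, lies on chromosome 18 (38745919 to 38760922, mm9, gene 24066). Bud cells ran from 0.103 over a median of 19.4 to 32.3 RPKM, Six2-detecting cells from 0 over 2.14 to 64.5 RPKM, and remaining cells from 0 over 3.57 to 166 RPKM. The highest values were thus in remaining cells, 12 of which lay above the highest bud cell. Spry4 was detected in 6 of 7 bud cells (42.1 to 99.6%), 25 of 46 Six2-detecting cells (39.0 to 69.1%) and 18 of 33 remaining cells (36.4 to 71.9%). Means were 16.2 ± 13.0 RPKM in bud cells, 10.3 ± 16.1 RPKM in Six2-detecting cells and 24.9 ± 36.3 RPKM in remaining cells.

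Spred1, on chromosome 2 (116947186 to 117005072, mm9, gene 114715), is a Sprouty-related inhibitor that works with neurofibromin to hold Ras inactive. Bud cells ran from 0 over a median of 14.7 to 45.5 RPKM, Six2-detecting cells from 0 over 1.65 to 58.3 RPKM, and remaining cells from 0 over 1.87 to 68.4 RPKM. The bud cells lay inside the range of both other classes. Spred1 was detected in 6 of 7 bud cells (42.1 to 99.6%), 26 of 46 Six2-detecting cells (41.1 to 71.1%) and 17 of 33 remaining cells (33.5 to 69.2%). Means were 16.2 ± 16.6 RPKM in bud cells, 9.80 ± 16.3 RPKM in Six2-detecting cells and 10.3 ± 18.4 RPKM in remaining cells.

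**Figure D2:**
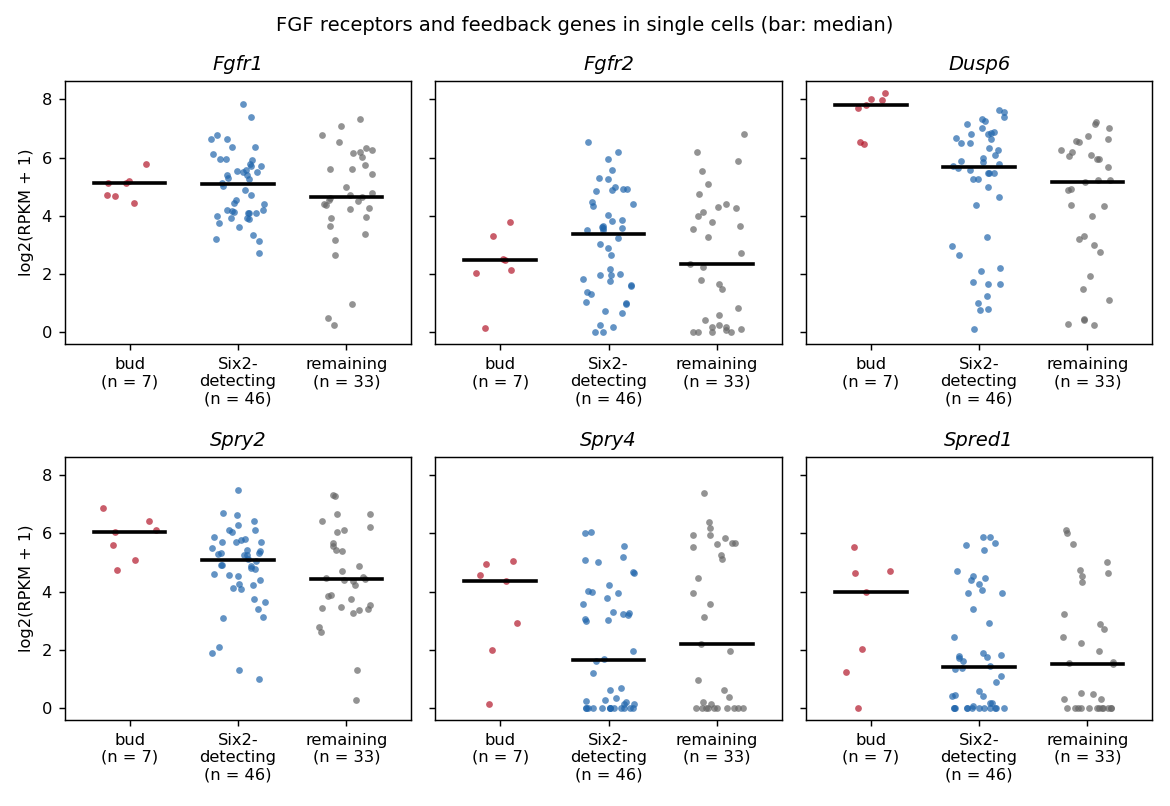
Each point is 1 cell, placed by class from left to right as bud, Six2-detecting and remaining cells, with log2(RPKM + 1) on the vertical axis and a bar at the median. For Dusp6, 5 of 7 bud cells stand above every other cell, while the points of the other 5 genes overlap between classes.

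Dusp6 had the highest mean in each class, and Fgfr1 and Spry2 came next. In bud cells the means ran from Dusp6 (202 RPKM) through Spry2 (62.9 RPKM) and Fgfr1 (32.6 RPKM) to Spred1 and Spry4 (16.2 RPKM each) and Fgfr2 (5.38 RPKM). Dusp6 exceeded Spry2 in 7 of 7 bud cells, 28 of 46 Six2-detecting cells and 15 of 33 remaining cells. Outside the bud the means of Dusp6, Fgfr1 and Spry2 lay closer together than their SD over cells, as did those of Fgfr2, Spry4 and Spred1. Within cells, Fgfr2 exceeded Spry4 in 31 of 46 Six2-detecting cells and 17 of 33 remaining cells, and Spred1 in the same numbers. Spry4 exceeded Spred1 in 20 of 46 Six2-detecting cells and 18 of 33 remaining cells. Fgfr1 exceeded Spry2 in 23 of 46 Six2-detecting cells and 14 of 33 remaining cells. All 4 feedback genes were detected together in 5 of 7 bud cells, 14 of 46 Six2-detecting cells and 13 of 33 remaining cells. All 6 genes were detected in 24 of 86 cells, of which 4 were bud cells, 11 Six2-detecting cells and 9 remaining cells.

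Ratios between classes were taken as the log2 ratio of (mean RPKM + 1), and a gene was called past 2-fold. Between bud cells and Six2-detecting cells, 1 of 6 genes was called higher, Dusp6 at 1.67, where 10.3% of all 12360 genes were, and 1 of 6 was called lower, Fgfr2 at -1.38, where 20.9% of all genes were. Spred1 (0.67), Spry2 (0.67), Spry4 (0.61) and Fgfr1 (-0.42) were not called. The median was 0.64 for the 6 genes and -0.19 for all genes. Between bud cells and remaining cells the same counts arose: Dusp6 was higher at 2.10, against 12.3% of all genes, and Fgfr2 lower at -1.34, against 22.0% of all genes. The others lay between -0.59 for Spry4 and 0.70 for Spry2, and the median was 0.14 for the 6 genes and -0.14 for all genes. These comparisons share the bud cells, so they are not independent. A count of 1 in 6 is close to the share among all genes in each direction. Of the 12360 genes, 527 had a higher ratio than Dusp6 over Six2-detecting cells and 374 over remaining cells. Dusp6 is the highest of 6 members that were chosen with earlier results of these data known.

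The 2 calls differed in how far they held. Dusp6 kept its call in all 16 alternatives computed for each comparison, between 1.55 and 2.59 over Six2-detecting cells and between 1.86 and 3.09 over remaining cells. Fgfr2 lost its call when the mean was taken over log2 values of single cells, at -0.70 against Six2-detecting cells and -0.22 against remaining cells. In that version Spry2 (1.02), Spry4 (1.32) and Spred1 (1.19) were past 2-fold over Six2-detecting cells, and Spry2 (1.31) and Spred1 (1.26) over remaining cells, where 18.1% and 22.3% of all genes were called in either direction. Fgfr1 then lay at 0.36 and Spry4 at 0.63 over remaining cells, where the main ratios were below 0. Directions of Fgfr1 and of Spry4 over remaining cells therefore depend on the kind of mean.

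Between Six2-detecting and remaining cells, 0 of 6 genes were called higher, where 7.40% of all genes were, and 1 of 6 was called lower, Spry4 at -1.19, where 7.65% of all genes were. Spry4 was detected in close shares of both classes, and 3 remaining cells lay above the highest Six2-detecting cell. With the mean over log2 values Spry4 lay at -0.68 and was not called, and 5.94% of all genes were. Fgfr1 (0.09), Fgfr2 (0.04), Spry2 (0.03) and Spred1 (-0.07) were near 0, and Dusp6 was at 0.44.

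**Figure D3:**
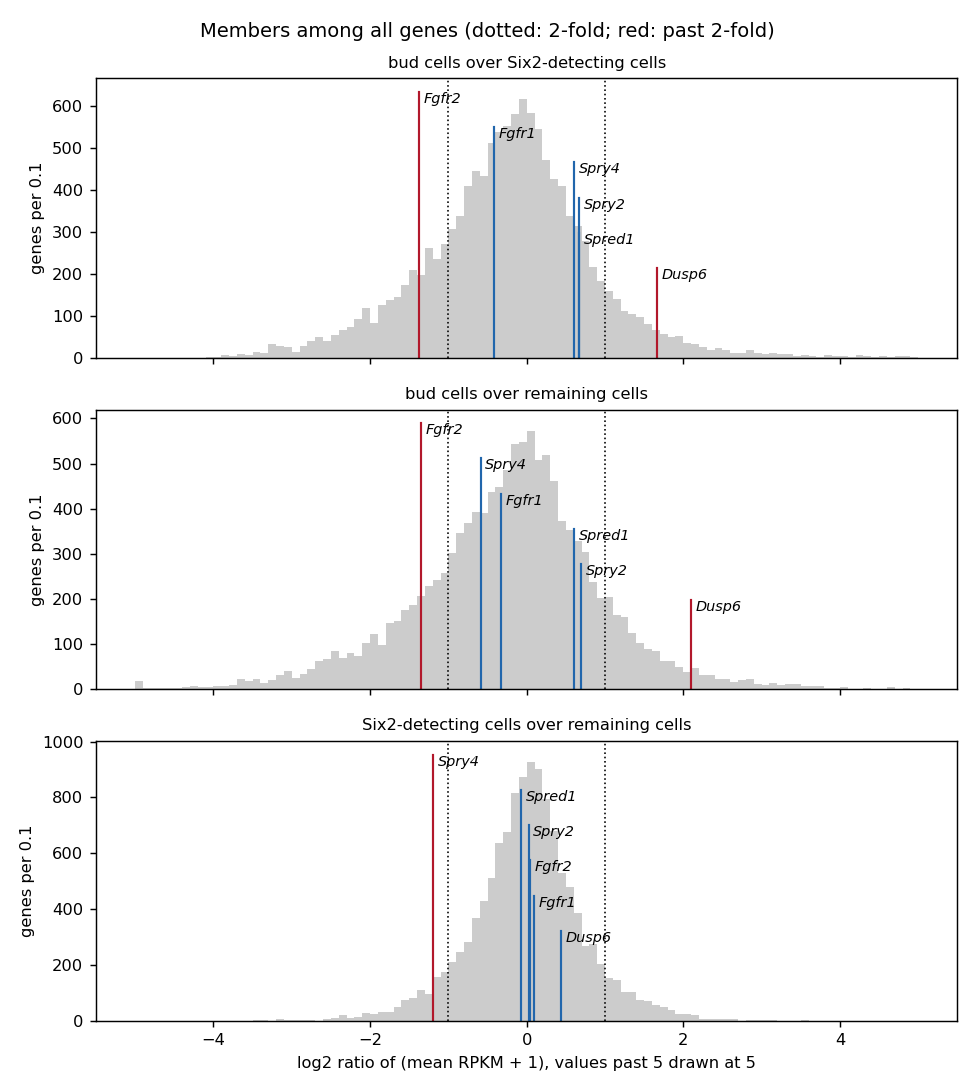
Grey bars count all 12360 genes by log2 ratio of (mean RPKM + 1), 1 panel per comparison with the class named first on top of the ratio, and lines mark the 6 genes, red where past 2-fold (dotted limits). Dusp6 at 1.67 and 2.10 lies in the right tail of both bud comparisons, Fgfr2 at -1.38 and -1.34 left of the limit, and Spry4 at -1.19 is the gene past the limit between Six2-detecting and remaining cells.

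Cells of the same class were then split by a further marker, a step chosen after earlier values of these data were known. Among Six2-detecting cells, 29 detected Cited1, which marks the least differentiated nephron progenitors, and 17 did not. Dusp6 averaged 72.5 ± 54.2 RPKM in Cited1-detecting cells and 46.5 ± 57.8 RPKM in cells without Cited1, and Spry2 averaged 44.6 ± 36.8 RPKM in Cited1-detecting cells and 29.8 ± 21.6 RPKM in cells without Cited1. Of the 6 genes 0 were called, where 18.5% of all genes were called in either direction. With the mean over log2 values Dusp6 alone was past 2-fold, at 1.26, where 5.57% of all genes were. Fgfr1 averaged 43.9 RPKM in Cited1-detecting cells and 44.3 RPKM in cells without Cited1, and Fgfr2 16.3 RPKM in Cited1-detecting cells and 14.5 RPKM in cells without Cited1.

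Among remaining cells, Spry2 was higher where the stroma gene Foxd1 was detected. It ran from 5.15 over a median of 21.5 to 160 RPKM in the 25 Foxd1-detecting cells and from 0.222 over 8.99 to 28.1 RPKM in the 8 cells without Foxd1, and 12 of the 25 lay above all 8. The mean was 47.2 ± 44.0 RPKM in Foxd1-detecting cells and 11.1 ± 10.2 RPKM in cells without Foxd1, a log2 ratio of 1.99. Spry4 averaged 28.9 ± 39.5 RPKM in Foxd1-detecting cells and 12.4 ± 20.5 RPKM in cells without Foxd1, a log2 ratio of 1.16. The median number of detected genes was 6087 in Foxd1-detecting cells and 6113.5 in cells without Foxd1. These 2 of 6 genes were called higher, where 20.4% of all genes were, and 0 were called lower, where 12.9% of all genes were. Spry2 kept its call in all 4 alternatives (1.78 to 2.07), while Spry4 was short of it with the mean over log2 values, at 0.51, where Fgfr2 was past 2-fold lower at -1.22. Of the 5 cells with few detected genes, 4 were remaining cells, and the ratios without them were 1.78 for Spry2 and 1.36 for Spry4.

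Outside the bud, 14 cells detected Wnt4 or Lhx1, genes of the induced nephron, and 65 did not. This split shares cells with the one by Foxd1, so they are not independent. Cells 5, 40 and 80 are among the 14 and among the remaining cells without Foxd1. Spry2 averaged 22.4 ± 13.4 RPKM in the 14 cells and 42.4 ± 38.7 RPKM in the other 65, a log2 ratio of -0.89, and 26 of the 65 lay above the highest of the 14. Of the 6 genes 0 were called, where 19.2% of all genes were called in either direction. Fgfr2 averaged 16.5 ± 16.6 RPKM in the 14 cells and 15.2 ± 23.1 RPKM in the other 65, and Dusp6 50.8 ± 54.6 RPKM in the 14 cells and 57.0 ± 52.0 RPKM in the other 65. The 14 cells detected a median of 6709.5 genes and the other 65 a median of 6087 genes.

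**Figure D4:**
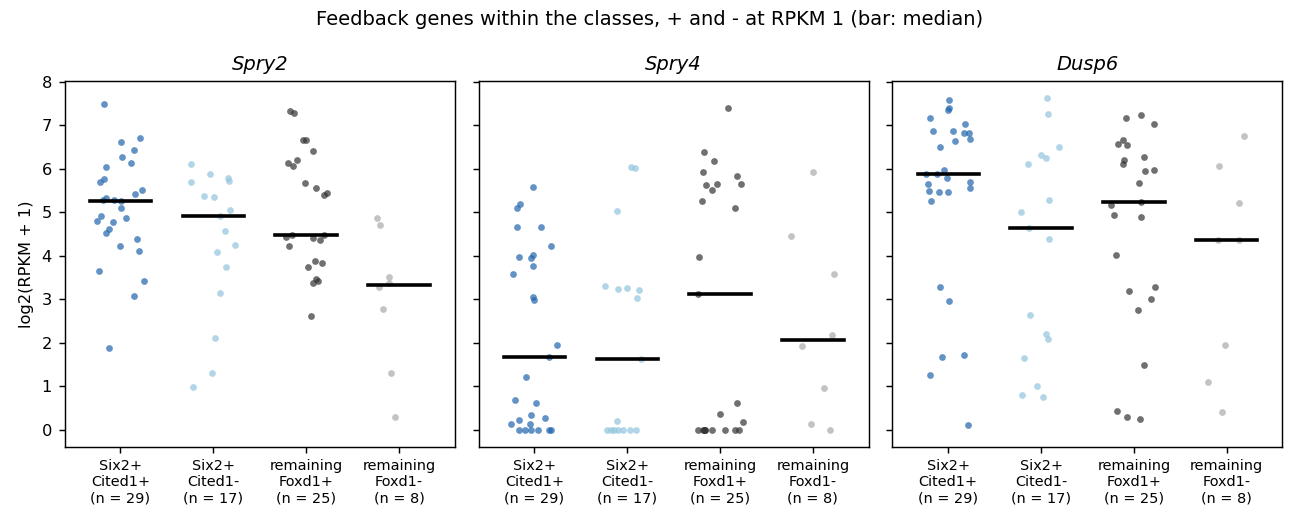
Points are single cells outside the bud, split from left to right into Six2-detecting cells with and without Cited1 and remaining cells with and without Foxd1, with log2(RPKM + 1) on the vertical axis and a bar at the median. For Spry2 the 8 cells without Foxd1 end at 28.1 RPKM, and 12 of the 25 cells with Foxd1 lie above them.

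Correlations between the members were weak over all cells, differed between classes and are given as a description. On the log2(RPKM + 1) scale across 86 cells, Pearson r was 0.31 for Spry2 with Dusp6, 0.29 for Spry2 with Spry4 and 0.26 for Spry4 with Dusp6. Fgfr2 had r of -0.24 with Spry4 and Fgfr1 had r of 0.21 with Dusp6. Pooled values also hold differences in mean between classes. Spry2 with Spry4 had r of 0.07 in 46 Six2-detecting cells and 0.46 in 33 remaining cells, and Fgfr1 with Dusp6 had r of -0.06 in Six2-detecting cells and 0.45 in remaining cells. By Spearman's rho the values in remaining cells were 0.45 for Spry2 with Spry4 and 0.27 for Fgfr1 with Dusp6. Spry2 with Spred1 had r of -0.39 in Six2-detecting cells and 0.19 in remaining cells. The cells were treated as 1 pool, and over all cells the number of detected genes had r between 0.11 and 0.31 with the 6 genes. Relative depth had r between -0.09 and 0.04. Within classes these reached further. The number of detected genes had r from -0.12 to 0.51 (Spry4) in Six2-detecting cells and from -0.05 to 0.42 (Spred1) in remaining cells. Relative depth had r from -0.14 to 0.06 in Six2-detecting cells and from -0.38 (Dusp6) to 0.08 in remaining cells.

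The genes most like each member across the 86 cells, among 8916 genes detected in at least 20 cells, had r between 0.38 and 0.47. Each is among the highest values of a long list, and how high r would reach for unrelated genes was not measured. The functions given are background and not a reason for the match. Spry4 was most like Gdnf (0.46), the ligand of Ret, Ets1 (0.45), an ETS factor, and Map2k1 (0.44), the kinase of ERK. Fgfr2 was most like Unc45a (0.44), Itga8 (0.44), an integrin of nephron progenitors, and Ptprg (0.43). Dusp6 was most like Tcf25 (0.47), Etfb (0.42) and Prim1 (0.41), and Spry2 most like Mest (0.44), Tspan14 (0.40) and Bcap31 (0.38). Fgfr1 was most like Lamtor2 (0.45), Cpne8 (0.42) and Eif3h (0.40), and Spred1 most like Fam120b (0.42), Dtx2 (0.41) and Ufd1l (0.40). By Spearman's rho 7 of these 18 were named again.

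Other genes of the pathway gave the surroundings of these values. Of 22 FGF ligand genes 9 were in the table. Fgf10, which acts on the epithelial isoform of Fgfr2, averaged 4.17 ± 6.98 RPKM in bud cells, 22.3 ± 26.7 RPKM in Six2-detecting cells and 5.77 ± 13.0 RPKM in remaining cells, and was detected in 2 of 7 bud cells, 35 of 46 Six2-detecting cells and 8 of 33 remaining cells. Its log2 ratio was -2.17 for bud over Six2-detecting cells and 1.78 for Six2-detecting over remaining cells. Fgf9 and Fgf20, ligands that maintain nephron progenitors and were picked out after their values were seen, were detected in 1 and 0 bud cells, 6 and 7 Six2-detecting cells, and 2 and 0 remaining cells. Of the 9 ligands, 1 was called higher and 2 lower in bud over Six2-detecting cells (all genes 10.3% and 20.9%), 2 and 2 over remaining cells (all genes 12.3% and 22.0%), and 3 and 1 in Six2-detecting over remaining cells (all genes 7.40% and 7.65%). Most ligands were thus found in few cells. Among the other receptors, picked out in the same way, Fgfr3 was detected in 3 of 7 bud cells, 17 of 46 Six2-detecting cells and 11 of 33 remaining cells, and Fgfr4 in 2 bud cells, 0 Six2-detecting cells and 1 remaining cell.

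Among 14 other feedback inhibitors in the table, Spry1, which restrains Ret signalling, averaged 28.1 ± 37.6 RPKM in bud cells and 11.5 ± 15.5 RPKM in Six2-detecting cells. Its log2 ratio of 1.22 fell to 0.32 without 1 bud cell of 109.7 RPKM. With the mean over log2 values, and that cell kept, Spry1 lay at 1.45. Rasa1, a Ras GTPase activator, averaged 5.12 ± 4.64 RPKM in bud cells, 17.3 ± 19.9 RPKM in Six2-detecting cells and 22.2 ± 24.0 RPKM in remaining cells. The list had 1 gene called higher and 3 lower in bud over Six2-detecting cells (all genes 10.3% and 20.9%), and 1 and 2 over remaining cells (all genes 12.3% and 22.0%), counts near the shares of all genes. Its medians were -0.76 and -0.33, and those of all genes -0.19 and -0.14.

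Among 16 ERK-responsive transcription factor and cell cycle genes, those called went both ways. Etv5, an ETS factor downstream of Ret in the bud, averaged 100.1 ± 101 RPKM in bud cells, 27.2 ± 39.9 RPKM in Six2-detecting cells and 16.0 ± 28.3 RPKM in remaining cells. Ets2 averaged 18.9 ± 24.1 RPKM in bud cells, 2.75 ± 6.06 RPKM in Six2-detecting cells and 4.55 ± 14.7 RPKM in remaining cells. Etv5 was detected in 7 of 7 bud cells. Ets2 was detected in 3 of 7 bud cells (median 0.233 RPKM), 17 of 46 Six2-detecting cells and 7 of 33 remaining cells. By the ratio of means Etv5 and Ets2 were higher in the bud, as were Ccnd1 over Six2-detecting cells (1.32) and Etv4 over remaining cells (1.80). Fos, an immediate early factor, averaged 21.9 ± 32.0 RPKM in bud cells, 100.1 ± 93.0 RPKM in Six2-detecting cells and 130 ± 137 RPKM in remaining cells. Egr1 was lower in the bud as well (-1.37 and -1.30), Myc lower over Six2-detecting cells (-1.29) and Ets1 lower over remaining cells (-2.04). In all, 4 of 16 were called higher and 5 lower over Six2-detecting cells (all genes 10.3% and 20.9%), and 4 and 4 over remaining cells (all genes 12.3% and 22.0%).

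Of 18 adaptors and kinases of the ERK cascade, 0 were called higher and 4 lower in bud cells in each bud comparison. Of all genes, 10.3% were higher and 20.9% lower over Six2-detecting cells, and 12.3% and 22.0% over remaining cells. The shares called lower were close to that of the list. Its medians were -0.09 over Six2-detecting cells and 0.06 over remaining cells, and those of all genes -0.19 and -0.14. Mapk3, which encodes an ERK kinase, averaged 11.4 ± 15.7 RPKM in bud cells, 32.1 ± 38.4 RPKM in Six2-detecting cells and 40.9 ± 52.0 RPKM in remaining cells. Map2k1 was lower over Six2-detecting cells (-1.10) and remaining cells (-1.10), and Rps6ka3 over remaining cells (-2.26). Rps6ka3 averaged 1.35 ± 1.64 RPKM in bud cells and 10.3 ± 27.8 RPKM in remaining cells. It was detected in 3 of 7 bud cells and 8 of 33 remaining cells. With the mean over log2 values Map2k1 lay at -0.77 and -0.44 and Rps6ka3 at -0.27, short of a call.

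Among 23 heparan sulfate genes, 3 were called higher and 4 lower in bud over Six2-detecting cells (all genes 10.3% and 20.9%), and 3 and 5 over remaining cells (all genes 12.3% and 22.0%), counts near the shares of all genes. The sulfotransferase Hs3st3b1 averaged 17.4 ± 20.7 RPKM in bud cells, 1.16 ± 4.98 RPKM in Six2-detecting cells and 1.79 ± 5.55 RPKM in remaining cells. Hs6st1 was higher (1.99), and Glce (-2.62) and Sdc1 (-1.12) lower, over Six2-detecting cells, and Ndst1 was higher over remaining cells (1.42). The core proteins differed: Sdc4 averaged 107 ± 47.3 RPKM in bud cells, 77.3 ± 54.9 RPKM in Six2-detecting cells and 33.4 ± 44.2 RPKM in remaining cells, whereas Sdc2 averaged 3.71 ± 9.75 RPKM in bud cells, 11.9 ± 21.0 RPKM in Six2-detecting cells and 41.9 ± 77.9 RPKM in remaining cells.

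Other receptors that feed the cascade were also uneven. Gfra1, the GDNF co-receptor, averaged 67.1 ± 27.9 RPKM in bud cells, 19.8 ± 21.5 RPKM in Six2-detecting cells and 3.94 ± 12.1 RPKM in remaining cells. Erbb3 averaged 15.7 ± 16.7 RPKM in bud cells, of which 6 of 7 detected it, and was detected in 0 of 46 Six2-detecting and 0 of 33 remaining cells. It is thus among the listed genes, which need 3 or more cells past an RPKM of 3, through bud cells alone. Ephb4 was higher over Six2-detecting cells (1.27). Pdgfra and Pdgfrb, receptors of stroma and mural cells, were lower over remaining cells (-1.12 and -1.74), and Pdgfra was lower in Six2-detecting than in remaining cells (-1.30). Of 14 genes in that list, 5 were called higher and 2 lower over Six2-detecting cells (all genes 10.3% and 20.9%), and 4 and 4 over remaining cells (all genes 12.3% and 22.0%). Of 37 named calls in the bud comparisons, 30 held when each bud cell was left out in turn. The others were Spry1, Ccnd1 (0.97 without cell 20), Ephb4 (0.75 without cell 74), Map2k1 in both comparisons (without any 1 of 3 cells), Sdc1 (without any 1 of 4 cells) and Pdgfra (without any 1 of 6 cells), the last 3 by small steps to between -0.89 and just short of the limit. Single high cells moved some ratios the other way: without cell 20 Pdgfra was at -4.50 over remaining cells and Map2k1 at -2.08 over Six2-detecting cells, and without cell 74 Sdc1 was at -2.19. Leaving out bud cells does not test high single cells of the other classes. With the mean over log2 values Egr1 (-0.95) and Sdc1 (-0.91) were not past 2-fold over Six2-detecting cells. Nor were Map2k1 in both comparisons and Rps6ka3 over remaining cells. Of the calls lost without a bud cell, those of Spry1 (1.45), Ccnd1 (2.73), Ephb4 (1.47) and Pdgfra (-2.10) were past 2-fold on that mean.

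**Figure D5:**
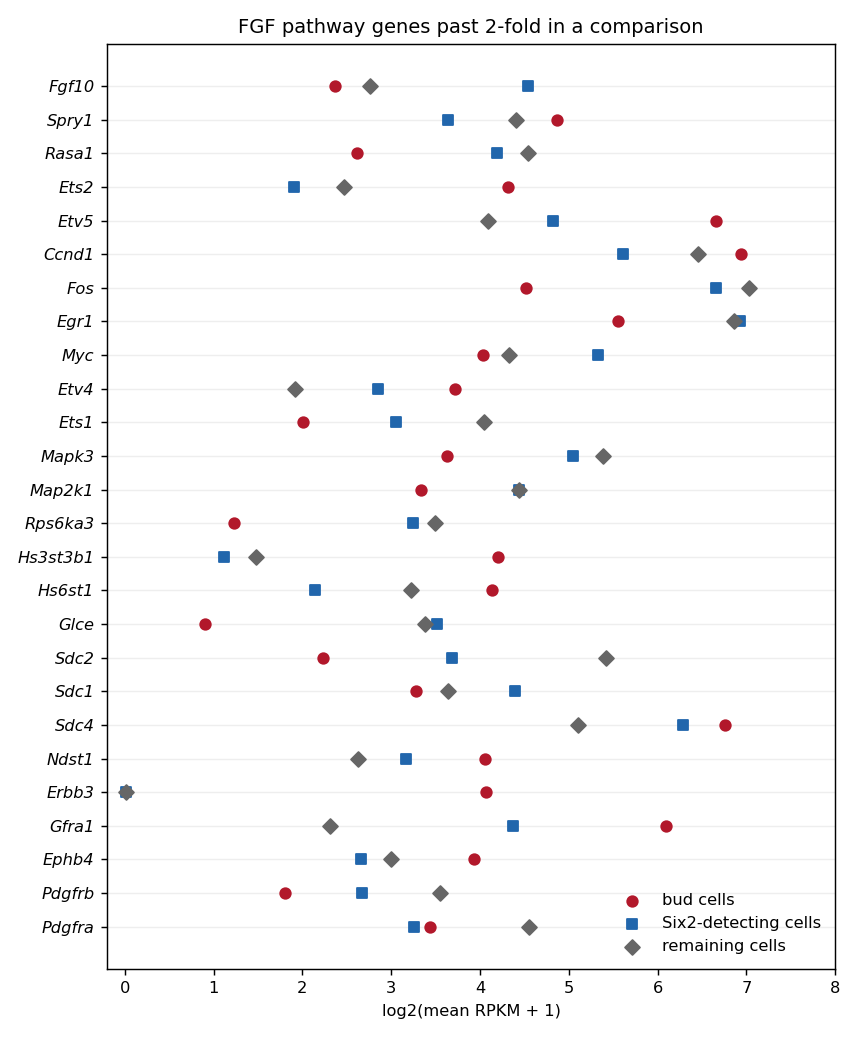
Each row is a pathway gene past 2-fold in a comparison, with the mean of bud (circles), Six2-detecting (squares) and remaining cells (diamonds) on the log2(mean RPKM + 1) axis. For Etv5, Gfra1 and Hs3st3b1 the bud mean is the highest of the 3, and for Fos, Rasa1 and Mapk3 it is the lowest.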

How the data were processed

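RNA of single cells was measured with the Fluidigm C1 system, and chambers were inspected by microscope for single cells, per the labels' protocols. The authors deposited RPKM values, and in the first table each gene has 3 or more cells past an RPKM of 3, by its last column. The other table, of 450 genes in 35 cells, also holds a signed fold, used as a score as deposited by the authors. TopHat 1.4.1, DESeq and mm9 are listed, without their roles, per the submitters' processing notes.

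RPKM was used on the linear scale, and genes were called detected at an RPKM of at least 1. Ratios are log2 of (mean RPKM + 1), called past 2-fold. Levels carry the SD over cells. Bud cells that detect Six2 counted as bud cells. Reads per cell relative to the median cell were recovered from the commonest ratio of low values between cells, and from either of a pair of starting cells 86 of 86 cells agreed within 2%. No absolute read total is given in the sources used here. No doublet caller was run and no cell was left out. PCR copies are not independent molecules, so intervals cover counting error only.

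The 6 members were always named. The 3 genes with the highest Pearson r were named per member, and from each pathway list the genes past 2-fold whose mean reached 10 RPKM in either class, at most 3 in each direction. A gene of these lists is not reported here. Members, lists and splits were chosen with earlier results of these data known. Alternatives were another pseudocount, the mean over log2 values, other limits for detection, Mal2 and Six2, RPKM rescaled to 1 sum, and cells left out. Python 3.11.15, numpy 2.4.6, pandas 2.3.3, scipy 1.17.1 and matplotlib 3.10.9 were used, and the calculations were tested on simulated data.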

Additional observations from a re-analysis of the deposited data

Results flagged for a closer look

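In the 7 bud cells, 32 genes (the members and the named pathway genes) were searched for a single cell far from the others, by the gap to the nearest cell over the whole range. None of the 6 members met the limit of 0.568, and 10 pathway genes did. Chance flags about 1 in 20 such groups where values are normally distributed, and the rate for skewed RPKM values with many near 0 was not measured, so the number of flags is not a measure of excess.

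Cell 74 stood apart in 3 genes: Etv5 at 319.8 RPKM (next 107.2 RPKM), Mapk3 at 45.25 RPKM and Sdc1 at 39.21 RPKM. Cell 20 stood apart in 4 genes: Pdgfra at 68.66 RPKM (next 0.1009 RPKM), Pdgfrb at 17.33 RPKM, Map2k1 at 39.01 RPKM and Sdc4 at 205.9 RPKM. Its 12 stroma markers summed to 283 RPKM, the highest of the bud cells, and Pdgfra is one of them. Cell 3 had 109.7 RPKM of Spry1 (next 29.96 RPKM), cell 53 had 25.83 RPKM of Sdc2 and cell 57 had 5.086 RPKM of Glce.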

How the results depend on the processing

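No paired analysis was possible because the cells were treated as 1 pool and no result comes from a test. Each class is 1 sample, so the SD over cells is not an error between kidneys. No called value changed sign. Of 318 alternative log2 ratios 304 moved by less than 1.5-fold and 14 by more, each of them under the mean over log2 values. With that mean the members past 2-fold numbered 4 in bud over Six2-detecting cells (main 2; Dusp6, Spry2, Spry4 and Spred1, with 18.1% of all genes called), 0 in Six2-detecting over remaining cells (main 1; 5.94% of all genes) and 1 in Six2-detecting cells with over without Cited1 (main 0; 5.57%). The cause was not tested. Leaving out each bud cell in turn gave 2 members in both bud comparisons, with 32.4 to 34.6% of all genes called over Six2-detecting and 35.3 to 36.9% over remaining cells. The share of cell and member pairs detected in Six2-detecting cells was 69.9% at an RPKM of at least 3 and 90.2% at any RPKM above 0 (main 81.2%), and in remaining cells 87.4% at any RPKM above 0 (main 74.2%). Of the 18 genes most like a member, 7 were named again by Spearman's rho and 8 without the 8 cells under 0.5 of the median depth, an alternative chosen after seeing the data, as were all those for the splits by Cited1, Foxd1 and Wnt4 or Lhx1. Low values rest on few reads.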

Other observations

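Split by Six2, bud cells had similar mean Dusp6, with 198.6 ± 103 RPKM in 3 cells with Six2 and 204 ± 78.8 RPKM in 4 cells without it, and each group held 1 of the pair of low cells. Fgf12, an intracellular FGF family member picked out after its values were seen, was detected in 4 of 7 bud cells and listed at 0 in all 79 other cells. A gene was listed only with 3 or more cells past an RPKM of 3, so Fgf12 was listed through bud cells alone.

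The authors' deposited table of 450 genes holds none of the 6 members and 3 of the 97 pathway genes present in the first table. The authors' deposited table gives a signed fold of cells called six2only over cells called six2andcited1 of -4.07 for Frs2, the FGF receptor adaptor, 3.61 for Elk1, an ERK target factor, and 3.94 for Sulf1, which edits heparan sulfate.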
